A study of Mus musculus with 3 samples.

Results

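Drosha-independent miRNAs were examined in matrix vesicles (MVs), the small vesicles that osteoblasts leave in the extracellular matrix (ECM) of bone. The members were taken by name from the mouse miRNA array, as every feature of miR-702, miR-877, miR-1224, miR-1981 and miR-1982 (mirtrons) and of miR-320 and miR-484 (capped precursors), with any arm. This gave 12 of the 1079 mouse miRNA features, 9 of mirtrons and 3 of capped precursors. They stand for 7 hairpins, 5 in the first class and 2 in the second. All samples were MVs from MC3T3-E1, an established mouse osteoblastic cell line, grown in osteogenic medium from 3000 cells/cm2. The MVs were released from the ECM with 500 units/mL collagenase, collected by ultracentrifugation. RNA was extracted from them independently 3 times, with 1 array each (n = 3), called isolations 1 to 3 here. Whether each extraction came from its own culture is not given, so the spread between isolations may be partly technical. The sample labels state that β-glycerophosphate was in the medium, whereas the methods describe cultures without it. No parent cells or other condition were analysed here, so the only comparisons are between members, between arms and between isolations.

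Most miRNAs are cut from a long transcript by the nuclear enzyme Drosha with its partner Dgcr8, and the resulting hairpin is then cut by Dicer. Mirtrons skip the first cut. A short intron is spliced out, its lariat is opened, and the intron itself folds into the hairpin that Dicer accepts. Capped precursors skip it in another way, since transcription begins at the first base of the hairpin and ends close to its last, which leaves a cap on the 5p arm. Both routes therefore tie the miRNA to another process, splicing of the host gene in one case and transcription start in the other.

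The sequences below show how the mirtron hairpins begin and end. RefSeq (GRCm38.p6) places Mir1224 at chr16:20604452-20604536 (plus strand) within Vwa5b2, Mir1982 at chr10:80828797-80828870 (plus strand) within Oaz1, the ornithine decarboxylase antizyme, and Mir877 at chr17:35960730-35960814 (minus strand) within Abcf1, a gene of translation. Mir1981 lies at chr1:184822407-184822488 (minus strand) within Mtarc2, a mitochondrial reductase component. The gene table holds gene spans without exons, so each host is given as a span, and its strand was not compared. Capitals mark the first and last bases of each hairpin, GU and AG, the letters with which most introns begin and end.
Mir1224: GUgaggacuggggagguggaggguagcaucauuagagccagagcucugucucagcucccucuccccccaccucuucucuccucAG
Mir1982: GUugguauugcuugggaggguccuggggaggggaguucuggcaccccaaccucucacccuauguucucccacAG
Mir877: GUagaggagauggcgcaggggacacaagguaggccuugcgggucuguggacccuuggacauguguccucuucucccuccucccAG
Mir1981: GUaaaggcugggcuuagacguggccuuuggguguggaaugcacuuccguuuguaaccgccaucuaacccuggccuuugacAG

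These 4 hairpins begin with GU and end with AG, whereas 30 of all 1005 RefSeq hairpins (2.99%) do. Among the 502 hairpins with a mature miRNA on the array, 6 have these ends (1.20%), the 4 mirtrons and Mir20a and Mir194-2. Mirtrons are introns by definition, so such ends go with the choice of the members and are no separate result. The fifth mirtron, Mir702, lies at chr5:136991433-136991541 (plus strand) within Plod3, a lysyl hydroxylase gene of collagen synthesis, and its annotated hairpin of 109 bases has other ends. The hairpin of Mir484 (chr16:14159626-14159692, plus strand) does not have them either. No annotated gene spans Mir484 or Mir320, which lie 348 bases from Marf1 and 39 bases from Polr3d, a subunit gene of RNA polymerase III, respectively. For all 5 mirtrons a protein-coding gene spans the hairpin, which also goes with their choice as introns. On the array, the hairpins of 437 features lie within such a span on either strand, and those of 374 do not.

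Mature sequences were found for 8 of the 12 features and are shown because the detected and undetected arms of the same hairpin differ in base content. Capitals mark the seed (bases 2 to 8), the part that pairs with target mRNAs. None of the 8 seeds occurred in another of the 1679 RefSeq mature miRNAs, so these 8 arms share no seed with each other. The first 3 arms were detected in MVs and the other 5 were not.
miR-1224-5p: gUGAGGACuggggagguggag
miR-1982-5p: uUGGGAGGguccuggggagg
miR-877-3p: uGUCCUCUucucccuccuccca
miR-1224-3p: cCCCACCUcuucucuccucag
miR-877-5p: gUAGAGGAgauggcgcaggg
miR-1981-5p: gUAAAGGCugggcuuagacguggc
miR-1981-3p: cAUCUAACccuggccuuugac
miR-484: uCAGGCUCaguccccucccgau

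Within the hairpins, miR-1224-5p covers bases 1 to 21 and miR-1224-3p bases 65 to 85 of 85, so both arms reach the ends of the hairpin. miR-877-5p also starts at base 1, and miR-877-3p ends 1 base before the last. In contrast, miR-1982-5p begins at base 12 of 74.

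In MVs, 3 of 9 mirtron features and 0 of 3 capped precursor features were detected in at least 1 isolation, against 16.7% of all mouse miRNAs. miR-1224-5p was detected in all 3 isolations with a bright signal, and miR-1982-5p and miR-877-3p were detected in isolations 2 and 3 with dim signals. The other 6 mirtron features (miR-1224-3p, miR-877-5p, both arms of miR-1981, miR-1982.2-3p and the feature named miR-702_v18.0, whose name gives no arm) were below detection in every isolation. The capped precursor features miR-320-3p, miR-320-5p and miR-484 were below detection in every isolation as well. Detection is the call that the scanner software stored for each feature.

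By isolation, 1, 3 and 3 of the 12 members were detected in isolations 1, 2 and 3, against 7.97%, 16.6% and 15.2% of all 1079 mouse miRNAs. In at least 1 isolation, 3 of the 12 members (25%) were detected, against 16.7% of all mouse miRNAs, and 1 of the 12 (8.33%) was detected in all 3, against 7.78%. These shares are near the background, so detection of the members as a set did not stand out. Of the mirtron features, 3 of 9 (33.3%) were detected, and of the capped precursor features 0 of 3. The classes hold few features, and their difference in detection was not tested. An undetected feature carries a signal of 0.1 on these arrays, so its level is not known below the detection limit, for which the dimmest mouse miRNA called detected stands here (signals of 4.87, 4.39 and 4.41 in isolations 1, 2 and 3). Each feature has its own error, so its own limit may lie higher than this. A level on an array also cannot tell more vesicles with a miRNA from more copies per vesicle.

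**Figure D1:**
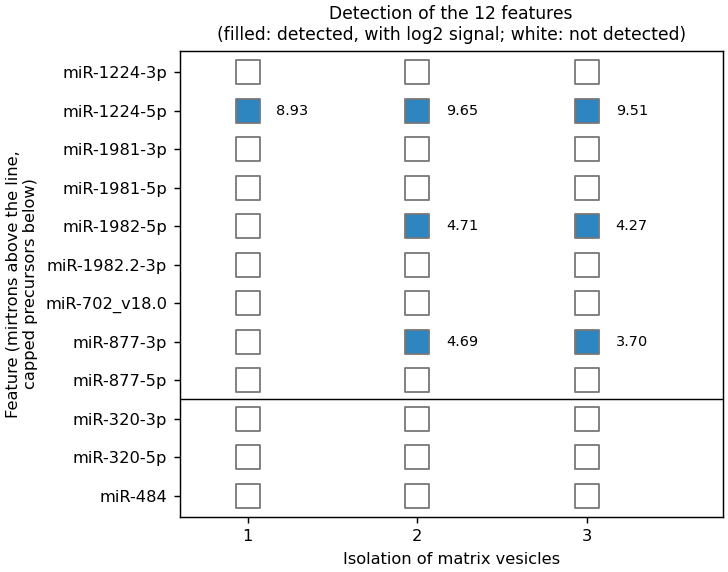
Detection of the 12 features (rows, mirtrons above the line and capped precursors below) in the 3 isolations (columns). Filled squares are detected, with the log2 total gene signal beside them. miR-1224-5p was detected in every isolation, at 8.93, 9.65 and 9.51, miR-1982-5p and miR-877-3p only in isolations 2 and 3, and no capped precursor feature in any.

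Isolation 1 stood apart as a whole array, as it had 86 mouse miRNAs called detected, isolation 2 had 179 and isolation 3 had 164. The RNA labeled was 100 ng each time. For the cells, the mesenchymal list of 6 miRNAs had 3, 4 and 4 detected members with summed signals of 74.7, 907.2 and 649.5 in isolations 1, 2 and 3. It lacked miR-143-3p and miR-145a-5p throughout. The lists of blood cell (5), liver (1) and neuron (2) miRNAs had 0 detected members, and of the 3 muscle miRNAs only miR-206-3p was detected (7.71, 37.4 and 21.7). The part of these array-wide differences in the members' values was not tested.

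miR-1224-5p (feature mmu-miR-1224-5p) was by far the brightest member. Its linear total gene signals were 488.8 ± 41.6 (isolation 1), 801.8 ± 66.4 (isolation 2) and 728.6 ± 60.8 (isolation 3), where ± is the error that the scanner software gives within 1 array. The error was 8.29% to 8.51% of the signal. On the log2 scale the signals were 8.93, 9.65 and 9.51 (9.36 ± 0.38, SD, n = 3). Isolation 1 was the lowest, and isolations 2 and 3 lay within their errors of each other. In the order of detected signals it was at place 6 of 86, 9 of 179 and 7 of 164, so that 94.6% ± 1.40 (SD, n = 3) of the detected mouse miRNAs had a lower signal. Because each probe has its own response, such places rank brightness and say nothing of molecule numbers.

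In share of the summed signal of detected mouse miRNAs, miR-1224-5p took 3.60%, 1.89% and 2.07% (2.52% ± 0.94, SD, n = 3). The share thus ran opposite to the signal, being highest in isolation 1 where the signal itself was lowest. Relative to the 75th percentile of the 84 miRNAs detected in all isolations, its log2 signal was 2.70, 1.78 and 1.98 (2.15 ± 0.48, SD, n = 3). The mean signal was 673.0 ± 163.7 (SD, n = 3), a spread of 24.3% of the mean and larger than the error within an array.

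miR-1982-5p, whose host gene Oaz1 limits polyamine synthesis, was a dim feature. It was not detected in isolation 1 and had signals of 26.1 ± 4.02 in isolation 2 and 19.3 ± 3.70 in isolation 3 (log2 4.71 and 4.27). These signals were 6.50 and 5.21 times their error. In order of signals it was at place 109 of 179 and 103 of 164, below the median detected signals of 34 and 30.1.

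miR-877-3p was a dim feature as well. It was not detected in isolation 1, and its signal was 25.8 ± 2.84 in isolation 2 and 13.0 ± 2.23 in isolation 3 (log2 4.69 and 3.70). It was at place 111 of 179 and 121 of 164, and its signals were 9.08 and 5.84 times their error.

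**Figure D2:**
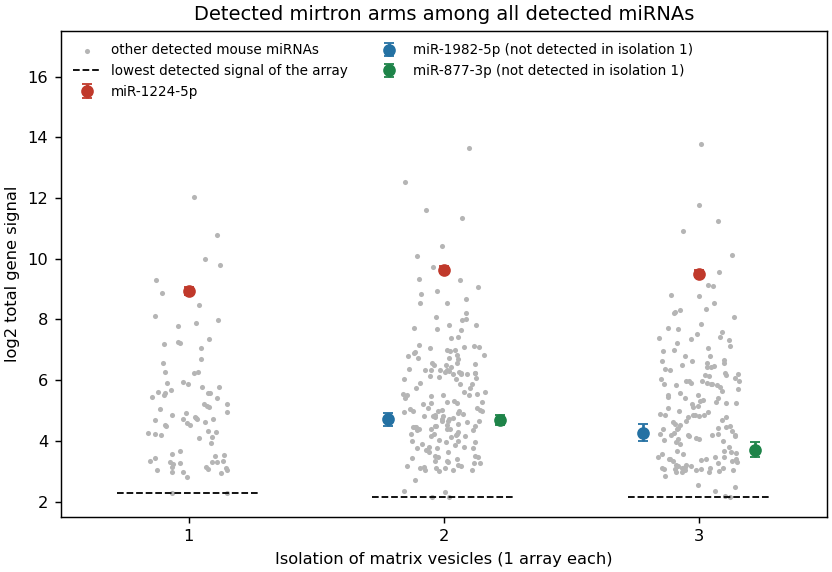
Log2 total gene signal of the detected members (colored points, bars are the error within the array) among all other detected mouse miRNAs (gray points, spread sideways for sight) in each isolation, with the lowest detected signal as a dashed line. miR-1224-5p lies at 8.93 to 9.65, near the top of each array, and miR-1982-5p and miR-877-3p lie at 3.70 to 4.71 in isolations 2 and 3.

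Arm use differed among the hairpins. From Mir1224 the 5p arm was detected and the 3p arm was not, in each of the 3 isolations. The log2 signal of miR-1224-5p lay 6.65, 7.51 and 7.37 above the lowest detected signal in isolations 1, 2 and 3, which is 100.3-fold, 182.6-fold and 165.3-fold. Any signal of miR-1224-3p under that limit would have been missed. From Mir1982 the 5p arm was likewise the detected one, 2.57 and 2.13 log2 units above the lowest detected signal in isolations 2 and 3. The array names its partner miR-1982.2-3p, which was not matched to a RefSeq sequence. From Mir877 the 3p arm was detected, at 2.55 and 1.56 log2 units above that limit, while miR-877-5p, the arm that begins with the first base of the hairpin, was not. Neither arm of Mir1981 or Mir320 was detected.

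On the whole array, both arms have a feature for 384 hairpins, and at least 1 arm was detected for 99 of them. Of these 99, 54 (54.5%) had the 5p arm alone, 37 (37.4%) the 3p arm alone and 8 (8.08%) both. Detection of 1 arm alone was thus the rule on these arrays. Of the mirtrons, only Mir1224 and Mir877 are among the 99, each with 1 arm alone. Mir1982 is not counted among the 384, as the names of its arms differ. The distances above are differences between a detected arm and the detection limit that stands for its partner, and the 2 probes of a hairpin may differ in response, so they are no ratio of RNA amounts.

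In units of error and on the log2 scale, isolations 2 and 3 lay closer for miR-1224-5p and miR-1982-5p than for miR-877-3p. Isolation 3 minus isolation 2 was -73.2 ± 90.1 in signal for miR-1224-5p and -6.86 ± 5.47 for miR-1982-5p, where ± combines the errors of both arrays. For miR-877-3p it was -12.7 ± 3.61, or -3.52 errors, and isolation 3 had 0.51 times the signal of isolation 2. On the log2 scale the differences were -0.14, -0.44 and -0.98, respectively, beside a median of -0.39 over the 164 miRNAs detected in both arrays. Of these 164, 143 were below miR-1224-5p in this difference, 71 below miR-1982-5p and 16 below miR-877-3p. Less the median, the differences were 0.25, -0.05 and -0.59 in the same order, with log2 errors of 0.17, 0.35 and 0.29. With 1 array per isolation these differences have no replicate check.

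Between isolations 1 and 2, the signal of miR-1224-5p differed by 313.0 ± 78.4, or 0.71 ± 0.17 on the log2 scale. This is 1.64-fold and 3.99 errors. Nevertheless it was smaller than for most miRNAs, since the median of the 85 miRNAs detected in both was 1.34 and 18 of them had a lower difference. Isolation 3 minus isolation 1 was 0.58 ± 0.17, beside a median of 0.87, and 21 of 84 had a lower difference. Across the 3 isolations the SD of its log2 signal was 0.38, beside a median of 0.74 over the 84 miRNAs detected in all isolations, of which 17 had a smaller SD. These values include the shift of the whole array in isolation 1. Measured from the median of each comparison, 43 of the 85 miRNAs lay closer to it than miR-1224-5p for isolation 2 minus 1, 32 of 84 for isolation 3 minus 1 and 97 of 164 for isolation 3 minus 2, and the SD of its relative log2 signal was 0.48. With the median as the shift, miR-1224-5p thus lay near the middle of the miRNAs in how far it moved. No such count was made against the 75th percentile, the reference of this SD. From it, isolation 2 minus 1 was -0.92 in place of -0.63.

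For miR-1982-5p and miR-877-3p the difference from isolation 1 could not be measured. With the lowest detected signal of isolation 1 in place of their own, isolation 2 was 5.36-fold and 5.28-fold higher, or 2.42 and 2.40 on the log2 scale. Their own undetected signals may lie above that lowest one, as each feature has its own error. The folds are therefore no lower bounds. The detection call itself enters these values, so they were not compared with the differences of miRNAs detected in both arrays. In this range of signal most miRNAs were missed in isolation 1. Of the 43 miRNAs with a log2 signal from 4 to 5 in isolation 2, a group that holds both, 11 (25.6%) were detected in isolation 1, and of the 20 miRNAs with a log2 signal of 8 or more, among them miR-1224-5p, all 20 were.

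**Figure D3:**
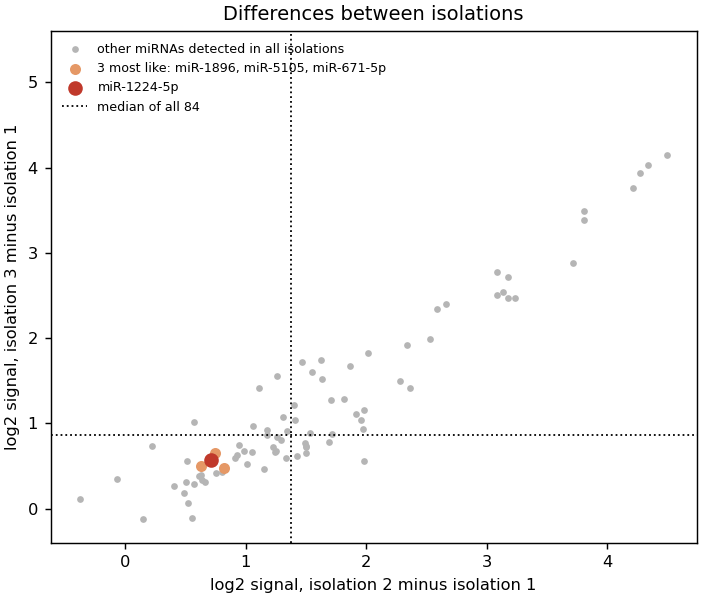
Log2 signal of isolation 2 minus isolation 1 (horizontal) against isolation 3 minus isolation 1 (vertical) for the 84 miRNAs detected in all isolations, with their medians as dotted lines. miR-1224-5p (large point, 0.71 and 0.58) lies below both medians and next to the 3 miRNAs with the most similar differences. Both axes share isolation 1.

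The miRNAs most like miR-1224-5p in their differences between isolations were miR-1896, miR-5105 and miR-671-5p. Likeness was the larger of the 2 distances on the log2 scale, in isolation 2 minus 1 and in isolation 3 minus 1, over 3 isolations and 83 other miRNAs. The distances were 0.081 for miR-1896, 0.081 for miR-5105 and 0.10 for miR-671-5p, against a median of 0.78. Their signals in isolations 1, 2 and 3 were lower than those of miR-1224-5p, at 27.1, 45.4 and 42.8 for miR-1896, 162.6, 252.1 and 230.6 for miR-5105 and 45.3, 80.0 and 63.0 for miR-671-5p. With 3 arrays many miRNAs can look alike by this measure.

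The detected 5p arms were rich in G. Of the bases of miR-1224-5p, 13 of 21 (61.9%) were G, and of miR-1982-5p 12 of 20 (60.0%), against a median of 25% over the 867 mouse miRNAs of the array with a RefSeq sequence. Only 4 of the 867 had a higher share of G than miR-1224-5p, and 5 had one above miR-1982-5p. All 6 with a share as high as that of miR-1982-5p were detected in MVs, but these 6 include miR-1982-5p itself and miR-1224-5p. By contrast, miR-877-3p had 1 G in 22 bases (4.55%), with 90.9% C or U. Its partner miR-877-5p, with 55% G, was not detected. Among the 13 miRNAs with at least this share, 11 were detected and miR-877-5p was 1 of the 2 that were not. The 11 also include miR-1224-5p and miR-1982-5p. A share of G thus sets the detected arm apart from its partner in opposite ways in Mir1224 and Mir877.

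Over the array as a whole, the share of miRNAs detected in at least 1 isolation was 8.20% of the 61 with less than 10% G, 9.09%, 11.3%, 18.6% and 29.6% in the next steps of 10%, and 62.9% of the 35 with 50% G or more. The median share of G was 38.1% in the 56 detected in all isolations, 28.6% in the 67 detected in isolations 2 and 3 without isolation 1, and 23.8% in the 729 not detected. A run of 4 G (GGGG, searched on the mature strand) occurs in miR-1224-5p and miR-1982-5p, and in 68 of the 867 (7.84%), against 22 of the 138 detected (15.9%). Of the undetected members with a sequence, miR-484 (18.2% G), miR-1981-3p (14.3%) and miR-1224-3p (4.76%) lay below the median of all, and miR-877-5p (55%) and miR-1981-5p (41.7%) lay above it. These are descriptions of the array, on which base content and probe response cannot be told apart.

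**Figure D4:**
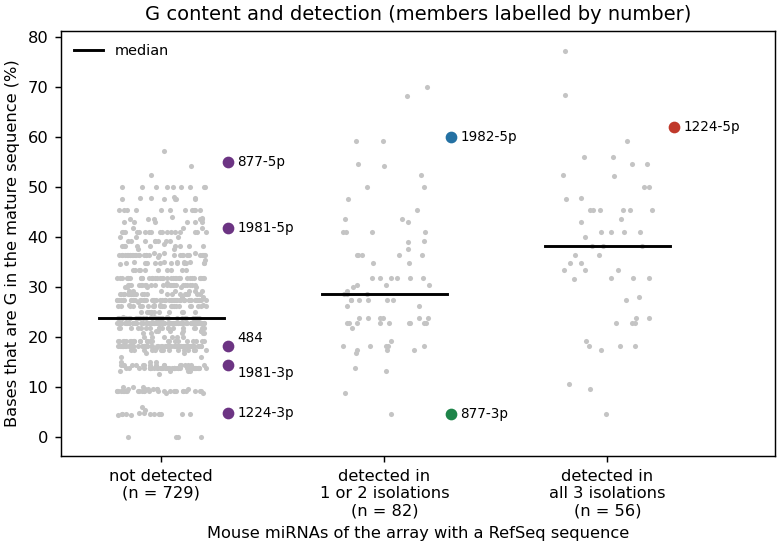
Share of G in the mature sequence (vertical, percent) of the mouse miRNAs with a RefSeq sequence, by detection (columns), with medians as bars. The labeled members show miR-1224-5p (61.9%) and miR-1982-5p (60.0%) at the upper end and miR-877-3p (4.55%) at the lower end of the detected miRNAs, while miR-877-5p (55%) lies at the upper end of the undetected ones.

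Detection was also counted by the position of the hairpin. Of the 437 features whose hairpin lies within the span of a protein-coding gene, 78 (17.8%) were detected, against 53 of 374 (14.2%) elsewhere, by the first locus listed for each. A gene on either strand counted, and features without a matched hairpin were left out. In all 3 isolations the shares were 7.78% and 5.08%, and neither difference was tested. A further list held other miRNAs with unusual routes of production, namely all 20 features of the miR-344 family (15 features, of which some precursors are also capped), miR-668 (2), miR-664 (2) and miR-451a (1), which needs Ago2 in place of Dicer. Of these 20, 0 were detected in any isolation, against 16.7% of all mouse miRNAs, and this difference was not tested.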

How the data were processed

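Total RNA of MVs (100 ng per isolation) was labeled with Cy3 and hybridized by the authors to a SurePrint G3 mouse miRNA array, 1 array for each of 3 isolations. The tables the authors deposited hold, per feature, an intensity (total gene signal, linear scale, from Agilent Feature Extraction 10.10.1.1 per the labels), its error, whether it was called detected and which type of control it is, without normalization between arrays. Undetected features hold a signal of 0.1 and an error of 1. Replicates are numbered by the sample titles.

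Members were matched by name, names with a further suffix included. Members and lists were chosen with earlier results of these data known. All members are named, with the detected miRNAs of the lists, the 3 nearest to miR-1224-5p by the distance given, host and neighboring genes, and 2 hairpins chosen after their ends were seen. Signals were taken as log2 and, as a relative value, less the 75th percentile among miRNAs that every isolation detected, since over all features this percentile falls on undetected ones. There is 1 group, so no test was made, and errors are the deposited errors or the SD over isolations. The number of arrays limits the precision. Sequences, positions and genes are from RefSeq tables of GRCm38.p6, which the array tables do not name, with matches by exact name. The functions were tested on simulated arrays. Python 3.11.15, numpy 2.4.6, pandas 2.3.3, scipy 1.17.1 and matplotlib 3.10.9 were used. The alternatives were other detection rules, references, sets of features and floors, and each isolation left out.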

Additional observations from a re-analysis of the deposited data

How the results depend on the processing

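The number of detected members, 3, and of detected mirtron features, 3, stayed at 3 if the signal had to exceed 3 errors, with at least 2 isolations required, with each isolation left out and, in a setting chosen after seeing the data, without the names that carry another suffix than an arm. Both fell to 1 with all 3 isolations required, because isolation 1 lacks miR-1982-5p and miR-877-3p. The number of capped precursor features, 0, was 0 under each of these settings that was run on it. Each setting only takes calls away, so this 0 could not rise. The counts of 3 could not change with 1 isolation left out either, as each detected member was called in at least 2. Nor could they change without the suffixed names, which were undetected. The limit of 3 errors took no member away, as the weakest detected signal of a member was 5.21 times its error. The mean relative log2 signal of miR-1224-5p, 2.15, was 2.07 with quantile normalization and 1.88 to 2.34 with each isolation left out. It was 3.53 relative to the median of the same miRNAs, 7.51 relative to the 90th percentile over all mouse miRNAs and 9.36 without a shift, as the reference differs. Relative values of miR-1982-5p and miR-877-3p (-3.46 and -3.65, with the lowest detected signal in place of isolation 1) were -3.21 and -3.50 over the isolations that detected them and -5.33 and -5.52 with the deposited 0.1. They turned positive with the 90th percentile (1.90 and 1.70). The percent of miRNAs with a lower signal than miR-1224-5p, 94.6, was 91.3 among the miRNAs detected in all isolations. Its share of the summed signal was 1.98% to 2.84% with each isolation left out. Less the 75th percentile in place of the median, the difference of miR-1224-5p between isolations 2 and 1 was -0.92 in place of -0.63, and without a centre 0.71. Between isolations 3 and 2 it turned from 0.25 to -0.14 without a centre. Of 73 values under alternatives, 51 stayed near the main value, the counts that could not change included. Near meant within the SD over isolations, or within 1.5 times for a count. Leaving out 1 isolation always moves a mean over isolations by less than that SD. The means with an isolation left out were therefore bound to stay near, and their agreement is no support. For differences between isolations it meant within the combined error of the 2 arrays. No paired analysis was possible because there is only 1 group. Levels under the lowest detected signal are not resolved.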

Other observations

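Across the 56 miRNAs with a sequence that were detected in all isolations, the share of G and the log2 difference of isolation 2 minus isolation 1 had a Spearman's rho of -0.25, and -0.23 without miR-1224-5p. For isolation 3 minus isolation 1 rho was -0.28, and for isolation 3 minus isolation 2 it was -0.0014 over 123 miRNAs detected in both. The miRNAs share their arrays and are not independent, the first relations share isolation 1, and these weak values are descriptions only. Of the 3 miRNAs nearest to miR-1224-5p in their differences between isolations, miR-1896 had 45.5% G and miR-671-5p 52.2% G. The median of the 56 was 38.1% G. The third, miR-5105, had no matched sequence, so no shared base content can be read from these values.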
